A study of Mus musculus with 18 samples.

Results

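The genes described here are 40 neuronal and synaptic genes measured in mouse embryonic fibroblasts, chosen by symbol from the 35734 genes of the authors' deposited comparison. These cells are connective tissue cells cultured from embryos and are a common starting point for reprogramming. All 40 symbols were found, each in 1 row, and they are called the members in the plots. Per the labels the cells came from the R26-M2rtTA line on a C57BL/6 background, which carries the doxycycline-responsive activator in all cells, and they were infected with doxycycline-inducible lentiviruses. In 1 group the viruses carried Brn2 (gene Pou3f2) and Myt1l, and in the other they carried Brn2, Myt1l, Ikzf1 and Ikzf4. RNA was taken after 48 h of doxycycline, with 3 libraries per group. Both groups express Brn2 and Myt1l, so every difference below is between cells that already receive these neuronal transcription factors, and cells without them were not analysed here. The deposited table holds 1 fold change per gene, and levels of these genes in single libraries were not analysed here. Nothing in the labels says that the libraries came from separate cultures, so p-values measure the spread between these libraries, which may be technical.

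Neurons release transmitter by fusing synaptic vesicles with the plasma membrane. Fusion is driven by SNARE proteins (Snap25, Stx1a and Vamp2), and the active zone scaffolds Rims1, Bsn and Pclo hold vesicles at the release site. Peptides and granins are stored in a different carrier, the dense-core vesicle, which neurons share with endocrine cells. Neuroligins, Dlg, Shank and Homer proteins organise the receiving side of the synapse. Genes such as Dcx, Map2, Mapt, Stmn2 and Elavl3 are used as markers of neurons as such. Of the 40 genes, 9 therefore encode postsynaptic rather than presynaptic proteins.

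Granins are shown first by sequence, because 4 of the 5 were called, in both directions, beside 30.6% of all genes tested. They were thus picked by their calls. Their promoter windows, from 250 bases before to 50 bases after an annotated start, are from RefSeq on GRCm38.p6. Each uses the outermost start with a promoter on record. For Scg3 that start lies inside the gene span given below and not at its edge. The windows are printed 5′ to 3′ on the strand of the gene. Chgb is at chr2:132781392-132781691 on the plus strand and Scg2 at chr1:79439977-79440276 on the minus strand. Scg3 is at chr9:75684007-75684306 and Scg5 at chr2:113829042-113829341, both on the minus strand, and Chga is at chr12:102554691-102554990 on the plus strand. Capitals mark matches on either strand to GGGAA (the Ikaros core), AAGTTT (the Myt1 family core), ATGCAAA (part of the POU octamer), CAGCTG (an E-box), and CAGCACC and GGACAG (both arms of the RE1 element, the site of the neuronal gene repressor REST).
Chgb: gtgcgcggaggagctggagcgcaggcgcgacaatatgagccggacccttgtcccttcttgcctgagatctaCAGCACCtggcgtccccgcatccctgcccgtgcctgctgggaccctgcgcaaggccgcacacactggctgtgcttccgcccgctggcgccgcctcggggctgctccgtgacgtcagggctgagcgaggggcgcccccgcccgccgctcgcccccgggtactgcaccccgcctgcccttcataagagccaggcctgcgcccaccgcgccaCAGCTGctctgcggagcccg
Scg2: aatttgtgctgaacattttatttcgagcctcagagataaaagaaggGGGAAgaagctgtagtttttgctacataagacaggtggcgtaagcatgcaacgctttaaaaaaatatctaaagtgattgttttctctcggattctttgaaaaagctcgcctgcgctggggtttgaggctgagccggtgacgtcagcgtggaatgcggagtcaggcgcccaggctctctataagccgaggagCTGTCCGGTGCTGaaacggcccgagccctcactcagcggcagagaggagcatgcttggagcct
Scg3: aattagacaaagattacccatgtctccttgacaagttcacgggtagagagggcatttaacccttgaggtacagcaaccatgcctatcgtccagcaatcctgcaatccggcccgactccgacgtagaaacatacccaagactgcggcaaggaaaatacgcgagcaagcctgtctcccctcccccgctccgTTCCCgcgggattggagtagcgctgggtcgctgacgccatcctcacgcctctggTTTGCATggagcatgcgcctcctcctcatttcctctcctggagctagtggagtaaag
Scg5: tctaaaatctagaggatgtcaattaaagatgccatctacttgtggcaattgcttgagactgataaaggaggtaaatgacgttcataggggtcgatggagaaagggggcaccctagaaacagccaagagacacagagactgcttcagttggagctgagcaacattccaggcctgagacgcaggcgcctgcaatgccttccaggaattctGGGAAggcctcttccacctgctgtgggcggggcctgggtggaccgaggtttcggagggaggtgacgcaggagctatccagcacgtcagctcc
Chga: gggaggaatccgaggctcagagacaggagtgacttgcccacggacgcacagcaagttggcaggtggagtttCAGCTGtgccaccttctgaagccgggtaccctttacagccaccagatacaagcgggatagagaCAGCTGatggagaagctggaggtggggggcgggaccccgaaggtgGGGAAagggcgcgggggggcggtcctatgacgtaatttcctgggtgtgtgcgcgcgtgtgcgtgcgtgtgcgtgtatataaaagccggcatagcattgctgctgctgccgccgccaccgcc

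Genes on both the higher and the lower side were called. Of the 40 genes, 38 had an adjusted p in the authors' deposited table, and 10 were under 0.05, the threshold for a call used throughout. With Ikzf1 and Ikzf4 added, 6 of these were higher and 4 lower in the authors' deposited table. Over all 16757 genes with an adjusted p in the authors' deposited table, 30.6% were called, 15.3% higher and 15.4% lower, so the 26.3% of these genes that were called lay near the background. The higher genes were Chgb, Pclo, L1cam, Scg2, Syn2 and Sv2a, and the lower ones Scg5, Shank2, Scg3 and Rims1. The median log2 fold change of the 38 genes in the authors' deposited table was -0.10, beside -0.0004 over all genes tested. A negative value was found for 27 of the 38, beside 8384 of all 16757 genes tested. Fold changes of genes with few reads may have been shrunk towards 0 in the authors' deposited table. For genes with a mean normalised count under 10 the median standard error there was 0.17, below the 0.22 at 10 to 100. Intervals given below for genes with few reads may therefore be too narrow.

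**Figure D1:**
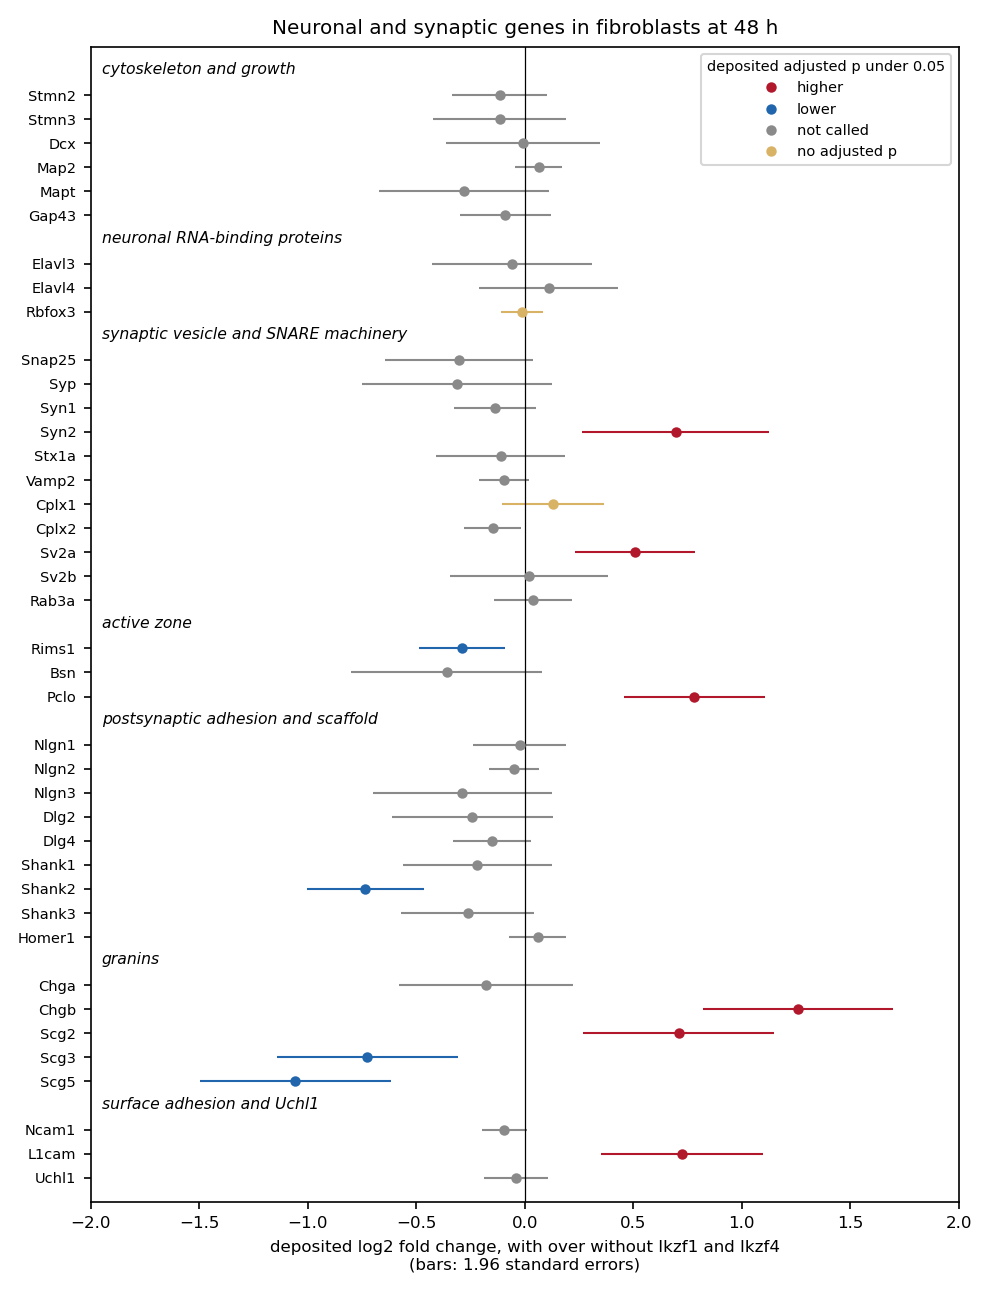
Deposited log2 fold change (x axis, with over without Ikzf1 and Ikzf4, log2 units) of the 40 genes (y axis, by role), with 95% intervals; colour shows the call at an adjusted p of 0.05. The 10 called genes lie on both sides of 0, and the 6 cytoskeletal genes all have bars that cross 0.

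Of the 7 roles, the granins had the most calls for their size, 4 of 5, beside 30.6% of all genes tested. The 4 called granins had mean normalised counts of 10 to 100, where 17.2% of all genes were called. They were singled out after the calls were seen. These acidic proteins and their relatives are stored in dense-core vesicles. Of the 5, 2 were higher and 2 lower in the authors' deposited table. Chgb (chromogranin B, ENSMUSG00000027350, chromosome 2, 132781642 to 132795079) had a mean normalised count of 39.1 and was 2.40-fold higher in the authors' deposited table, a log2 fold change of 1.26 (SE 0.22, adjusted p 2.43e-07 by DESeq2). This was the largest change among the 38 tested genes. Scg2 (secretogranin II, ENSMUSG00000050711, chromosome 1, 79434366 to 79440026), which is cut into the peptide secretoneurin, was higher by 0.71 in the authors' deposited table (SE 0.22, mean normalised count 20.4, adjusted p 0.00732 by DESeq2). Scg5 (ENSMUSG00000023236, chromosome 2, 113776313 to 113829091) encodes 7B2, a chaperone of the peptide-processing enzyme PC2. It was 2.08-fold lower in the authors' deposited table, at -1.06 (SE 0.23, mean normalised count 29.0, adjusted p 2.59e-05 by DESeq2). Scg3 (secretogranin III, ENSMUSG00000032181, chromosome 9, 75643366 to 75685959), which binds chromogranin A in the granule membrane, was lower, at -0.73 in the authors' deposited table (SE 0.21, mean normalised count 15.2, adjusted p 0.00339 by DESeq2). Chga, the founding granin, did not pass the threshold there, at -0.18 (95% interval -0.58 to 0.22, mean normalised count 9.04, adjusted p 0.569 by DESeq2 in the authors' deposited table). The 4 called granins thus had mean normalised counts of 15.2 to 39.1 and standard errors of 0.21 to 0.23 in the authors' deposited table.

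The active zone is the site of the presynaptic membrane where vesicles fuse. Of its 3 genes, 1 was higher and 1 lower, beside 30.6% of all genes tested called in either direction. Pclo (piccolo, ENSMUSG00000061601, chromosome 5, 14514906 to 14863465), a giant scaffold of that site, had a mean normalised count of 4465 and was 1.72-fold higher in the authors' deposited table, at a log2 fold change of 0.78 (SE 0.17, adjusted p 2.36e-05 by DESeq2). Its standard error was above the median of 0.07 for genes with a mean normalised count of at least 1000 in the authors' deposited table. Rims1 (ENSMUSG00000041670, chromosome 1, 22285972 to 22806158), which tethers vesicles through Rab3, was lower, at -0.29 in the authors' deposited table (SE 0.10, mean normalised count 612, adjusted p 0.0176 by DESeq2), the smallest change among the 10 calls. Bsn (bassoon), the close relative of Pclo, was at -0.36 in the authors' deposited table with an interval of -0.80 to 0.08 (adjusted p 0.235 by DESeq2). The difference between Pclo and Bsn was not tested.

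Among the 11 synaptic vesicle and SNARE genes, 10 had an adjusted p in the authors' deposited table, 2 were higher and 0 lower. Of all genes tested, 15.3% were higher and 15.4% lower. Syn2 (synapsin II, ENSMUSG00000009394, chromosome 6, 115134902 to 115282626), which ties vesicles into the reserve pool, was higher by 0.70 in the authors' deposited table (SE 0.22, mean normalised count 41.1, adjusted p 0.00747 by DESeq2). Sv2a (ENSMUSG00000038486, chromosome 3, 96181227 to 96195183), a vesicle membrane glycoprotein, was higher by 0.51 in the authors' deposited table (SE 0.14, mean normalised count 369, adjusted p 0.00195 by DESeq2). Their paralogues were not called. Syn1 was at -0.14 (interval -0.32 to 0.05) and Sv2b at 0.02 (-0.34 to 0.38) in the authors' deposited table. Of the paralogues outside the 40, Syn3 was at -0.36 (-0.72 to 0.01) and Sv2c at -0.51 (-0.96 to -0.07, adjusted p 0.069 by DESeq2) in the authors' deposited table. The 3 core SNARE genes did not pass the threshold. Snap25 was at -0.30 (interval -0.64 to 0.04, mean normalised count 5.42), Stx1a at -0.11 (-0.41 to 0.18) and Vamp2 at -0.10 (-0.21 to 0.02) in the authors' deposited table. Vamp2, with a mean normalised count of 5923, was the SNARE gene measured most precisely, and its interval reached no lower than -0.21 in the authors' deposited table. Cplx2, a complexin that clamps and promotes SNARE fusion, was at -0.15 with a raw p of 0.0290 and a adjusted p 0.0837 by DESeq2 in the authors' deposited table. Syp (synaptophysin) was at -0.31 (-0.75 to 0.12) and Rab3a, the vesicle GTPase, at 0.04 (-0.14 to 0.22) in the authors' deposited table. Cplx1, at a mean normalised count of 2.24, had no adjusted p in the authors' deposited table.

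**Figure D2:**
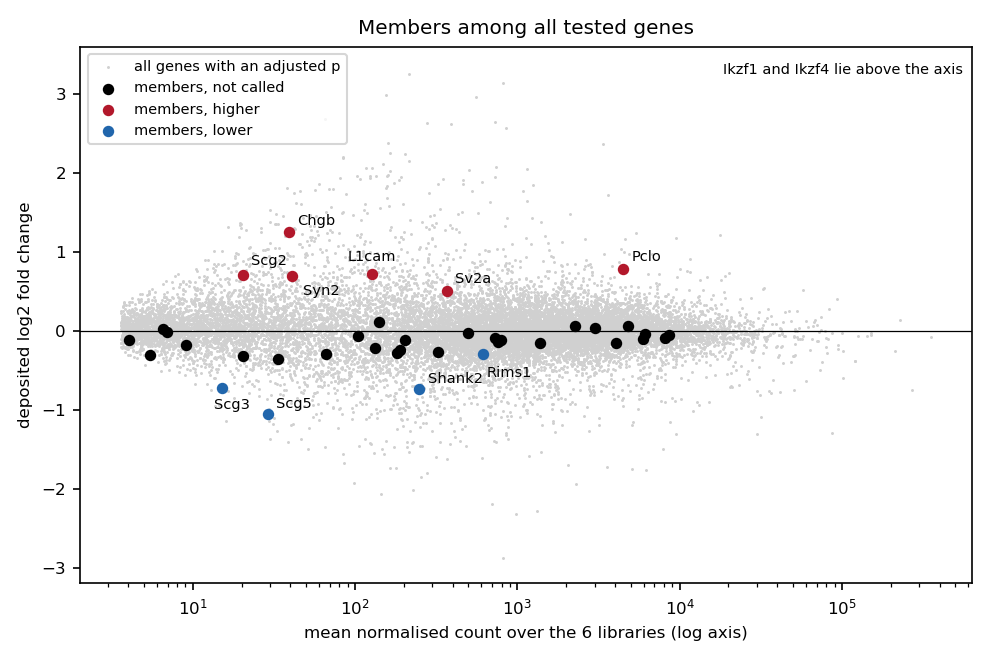
Deposited log2 fold change (y axis) against the mean normalised count over the 6 libraries (x axis, log scale) for all genes with an adjusted p (grey) and the 38 neuronal and synaptic genes among them (black, not called; red, higher; blue, lower). Above a mean of 1000 the only coloured point is Pclo, and between 10 and 100 there are 5.

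On the postsynaptic side, 1 of 9 genes was lower and 0 were higher in the authors' deposited table. Shank2 (ENSMUSG00000037541, chromosome 7, 143978077 to 144426043), a scaffold that links Dlg and Homer complexes, was 1.66-fold lower in the authors' deposited table, at -0.74 (SE 0.14, mean normalised count 249, adjusted p 1.04e-06 by DESeq2). Shank1 was at -0.22 (interval -0.56 to 0.13) and Shank3 at -0.26 (-0.57 to 0.04) in the authors' deposited table, also below 0 but not past the threshold. Among the neuroligins, which bind presynaptic neurexins, Nlgn1 was at -0.02 (-0.24 to 0.19), Nlgn2 at -0.05 (-0.16 to 0.07) and Nlgn3 at -0.29 (-0.70 to 0.12) in the authors' deposited table. Nlgn2 had a mean normalised count of 8646 in the authors' deposited table. Dlg2 and Dlg4 (PSD-95), scaffolds of glutamate receptors, were at -0.24 (-0.61 to 0.13) and -0.15 (-0.33 to 0.03), and Homer1 at 0.06 (-0.07 to 0.19) in the authors' deposited table. Thus 8 of the 9 values in this group were negative, beside 8384 of all 16757 genes tested, and some lay close to 0. The threshold was not passed by 8 of the 9, where 30.6% of all genes tested were called.

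None of the 8 tested genes that mark neurons through their cytoskeleton or their RNA-binding proteins was called, beside 30.6% of all genes tested. These include Dcx, which marks migrating immature neurons, Map2, which marks dendrites, Mapt, which encodes tau, and the growth-cone genes Stmn2 and Gap43. By DESeq2 in the authors' deposited table, 0 of the 8 were also under an unadjusted p of 0.05, the lowest adjusted p being 0.311 for Mapt. Map2 was measured most precisely, at 0.06 (interval -0.05 to 0.17, mean normalised count 4799) in the authors' deposited table. Stmn2 was at -0.12 (-0.34 to 0.10, mean normalised count 796) and Gap43 at -0.09 (-0.30 to 0.12, mean normalised count 730) in the authors' deposited table. Mapt was at -0.28 with a wider interval of -0.67 to 0.11 (mean normalised count 180) in the authors' deposited table. The neuronal Hu proteins stabilise messages in neurons. Elavl3 was at -0.06 (-0.43 to 0.31) and Elavl4 at 0.11 (-0.21 to 0.43) in the authors' deposited table. Dcx and Stmn3 had mean normalised counts of only 6.99 and 4.07 and were at -0.01 (-0.36 to 0.34) and -0.12 (-0.42 to 0.19) in the authors' deposited table. Of all genes with a mean normalised count under 10, 2.99% were called. Rbfox3, which encodes the NeuN antigen of mature neurons, had a mean normalised count of 0.194 in the authors' deposited table and no adjusted p.

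Among the last 3 genes, L1cam (ENSMUSG00000031391, X chromosome, 73853778 to 73880838), an adhesion molecule of growing axons, was 1.65-fold higher in the authors' deposited table, at 0.72 (SE 0.19, mean normalised count 128, adjusted p 0.00088 by DESeq2). Ncam1, another immunoglobulin-family adhesion molecule, was at -0.10 (interval -0.20 to 0.01, mean normalised count 8139) in the authors' deposited table. Uchl1, a ubiquitin hydrolase abundant in neurons, was at -0.04 (-0.19 to 0.11, mean normalised count 6141) in the authors' deposited table. Both intervals stayed within 0.20 of 0 on the log2 scale, and they cover only the spread between these libraries. Of the 28 tested genes that were not called, the interval lay within 0.25 of 0 for 8, within 0.5 for 19 and within 1 for all 28 in the authors' deposited table.

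Calls among these genes were unevenly spread over expression levels. In classes of mean normalised count chosen after the values were seen, 5 of 8 genes at 10 to 100 were called, where 17.2% of all genes of that class were called in the authors' deposited table. These 5 are Syn2 and the 4 called granins, so this class repeats the granin result. At 100 to 1000 it was 4 of 15 against 33.1%. At 1000 and over it was 1 of 10, Pclo, against 40.5%, and below 10 it was 0 of 5 with an adjusted p against 2.99% in the authors' deposited table. Called or not, the 38 genes had a median absolute log2 fold change of 0.17, beside 0.15 for all genes tested in the authors' deposited table. With an absolute log2 fold change over 0.5 required as well, 9 of the 38 passed, where 10.2% of all tested genes in the authors' deposited table did. Over 1, the 2 that passed were Chgb and Scg5, where 2.15% of all tested genes did. With a mean normalised count of at least 50 required instead, 5 of the genes that reached it were called, where 36.8% of all such genes were. The genes that reached it are fewer than the 38. In bulk samples, fewer cells that express a gene and less RNA per cell cannot be told apart.

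To place these genes among others of their pathways, 7 further lists of 132 genes were examined. Of 128 with an adjusted p, 25 were higher and 26 lower in the authors' deposited table, 39.8% called beside the 30.6% of all genes tested. Paralogues and partners of the vesicle machinery had 6 higher and 6 lower of 29 there (41.4% called). Unc13b, a priming factor, was higher by 0.60 (SE 0.11, adjusted p 6.24e-07 by DESeq2) and Amph, an endocytic adaptor, by 0.78 (SE 0.18, adjusted p 0.000118) in the authors' deposited table. Erc2, an active zone partner of Rims1 and Bsn, was lower, at -1.06 (SE 0.10, adjusted p 2.98e-25 by DESeq2), and Unc13a at -0.94 (SE 0.14, adjusted p 1.96e-09) in the authors' deposited table. In the authors' deposited table Rims2, a paralogue of Rims1, was lower too, at -0.40 (SE 0.11, adjusted p 0.00261 by DESeq2). Erc1 was not called there, at 0.07. Unc13a and Unc13b thus changed in opposite directions, whereas Erc2 and Rims2 were both lower.

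Genes of the neuronal cytoskeleton and growth cone had 5 higher and 8 lower of 20 in the authors' deposited table. This was 65.0% called, beside 30.6% of all genes tested. The median of the mean normalised counts in this list was 3327. Of all genes at 1000 and over, 40.5% were called. Dpysl5 was higher by 1.08 (SE 0.20), Map1a by 0.30 (SE 0.05), and the related Dpysl3 and Dpysl4 were lower, at -0.77 (SE 0.04) and -1.22 (SE 0.15) in the authors' deposited table. Dpysl genes encode collapsin response mediators, which relay guidance cues to the cytoskeleton. RNA-binding and splicing factors had 2 higher and 5 lower of 14 in the authors' deposited table. Elavl2, a neuronal Hu gene outside the 40, was 2.38-fold higher (log2 SE 0.14, adjusted p 2.45e-16 by DESeq2) and Khdrbs3 was higher by 0.59 on the log2 scale (SE 0.06) in the authors' deposited table. Celf5 was lower, at -0.65 (SE 0.10) and Msi2 at -0.30 (SE 0.06) in the authors' deposited table.

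Postsynaptic partners had 3 higher and 1 lower of 20 in the authors' deposited table. Lrrtm2, a synaptic adhesion protein that binds neurexins, was higher by 1.37 (SE 0.14, adjusted p 3.77e-21 by DESeq2), while its relative Lrrtm4 was lower, at -0.83 (SE 0.16, adjusted p 4.33e-06) in the authors' deposited table. Other dense-core vesicle genes had 2 higher and 2 lower of 12 in the authors' deposited table. Ptprn, a granule membrane protein, was higher by 0.38 (SE 0.07) and Cpe, a carboxypeptidase that trims neuropeptides, by 0.24 (SE 0.05) in the authors' deposited table. Tac1, which encodes substance P, was lower, at -0.86 (SE 0.09) and Pam, which amidates peptides, at -0.55 (SE 0.06) in the authors' deposited table. With 4 of 12 called, the dense-core vesicle genes were near the background share of 30.6%.

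Neuronal adhesion genes had 5 higher and 2 lower of 17 in the authors' deposited table (41.2% called). Cadm2 was higher by 1.24 (SE 0.08, adjusted p 3.36e-46 by DESeq2) and Cntn1 by 0.81 (SE 0.11), while Negr1 was lower, at -0.45 (SE 0.06) and Cntnap1 at -0.43 (SE 0.12) in the authors' deposited table. Of 16 repressors of neuronal genes, 2 were higher and 2 lower in the authors' deposited table (25.0% called). Rest, which binds RE1 sites and silences neuronal genes outside the nervous system, was higher by 0.17 (SE 0.07, adjusted p 0.0375 by DESeq2), and its corepressor Sin3a by 0.28 (SE 0.06) in the authors' deposited table. Kdm1a was lower, at -0.12 (SE 0.05, adjusted p 0.0494 by DESeq2) and the splicing repressor Ptbp1 at -0.15 (SE 0.06, adjusted p 0.0499) in the authors' deposited table. With Benjamini-Hochberg adjustment over every gene with a raw p of the DESeq2 comparison, Rest (0.0552), Kdm1a (0.0728) and Ptbp1 (0.0735) no longer passed, and Sin3a still did.

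**Figure D3:**
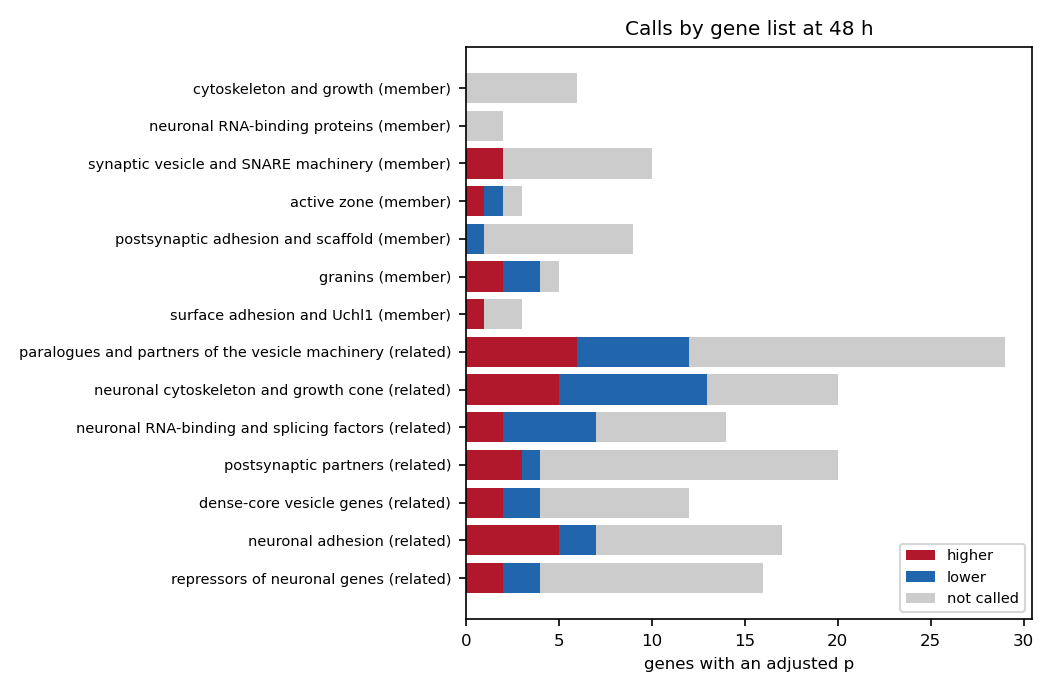
Number of genes with an adjusted p (x axis) in each list (y axis; member lists above, related lists below), split into called higher, called lower and not called. Each of the 7 related lists has calls in both directions, and so do the granins and the active zone genes.

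The libraries held 34966344 to 44270426 estimated reads. The added factors were far higher with Ikzf1 and Ikzf4 in the authors' deposited table, at log2 fold changes of 8.54 for Ikzf4 and 7.76 for Ikzf1. Myt1l, which both groups received, was 0.50 higher on the log2 scale (SE 0.17, adjusted p 0.0157 by DESeq2) in the authors' deposited table. Fibroblast markers were abundant, with mean normalised counts of 120151 for Col1a1 and 101766 for Vim, and 7 of 10 were lower, 0 higher, in the authors' deposited table. Markers of macrophages and blood were present as well, all 6 between 115 and 2580 in mean normalised count, with 0 of 6 called by DESeq2 and 1 (Ptprc) under an unadjusted p of 0.05 in the authors' deposited table. Of 7 skeletal muscle markers, Myod1 and Myog had mean normalised counts of 0.16 each, whereas Acta1 had 709, Des 83.5 and Ttn 34.3 in the authors' deposited table. Ttn was called higher there. The part of other cells in the changes above was not tested.

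Promoters of 31 of the 40 genes were matched in the RefSeq table. For Scg3, Rbfox3, Dlg2 and Shank3, among others, the start used lies inside the annotated gene. In a 300-base window the median number of CpG sites was 19, beside 19 for the 12367 promoters of genes with an adjusted p and 7 for all 27025 promoters. The Ikaros core GGGAA was in 21 of the 31 (67.7%), and in 62.4% of all 27025 promoters. The E-box CAGCTG was in 9 of 31 (29.0%) beside 16.1% of all promoters, AAGTTT in 3 (9.68%) beside 14.5%, and ATGCAAA in 2 (6.45%) beside 4.603%. The RE1 arms were in 3 (CAGCACC, 9.68%, beside 7.10%) and 4 (GGACAG, 12.9%, beside 22.1%). In the Scg2 promoter printed above, both RE1 arms adjoin with 0 bases between them just upstream of the gene start, an arrangement found in 3 of the 27025 promoters. Scg2 is among the granins picked by their calls, and whether this arrangement acts as an RE1 site was not tested. With 2 bases between them, the arms were in 9 of the 27025 promoters and in 0 of the 31. Chgb holds 1 CAGCACC arm, and the promoters of Scg3 and Scg5, the granins that were lower, hold a GGGAA match each, as do those of Scg2 and Chga. These matches are a description of the letters and not of binding.

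Chromatin over the same genes was measured in a single-nucleus multiome experiment, in which 1 control library from retina was compared with 1 labelled Ikzf1/4. The control is labelled Muller glia, C57BL/6, GLAST-CRE ERT2 with RosaYFP, and mCherry. The Glast (Slc1a3) promoter drives the recombinase in Muller glia. For both libraries the labels read tamoxifen at 14 days, whereas run names in the file headers read 48h. For the Ikzf1/4 library the fields for tissue, cell type, line and strain hold only its title. The control library held 52119123 unique fragments and the Ikzf1/4 library 29358834, and they shared 3 of the barcodes with at least 3000 fragments (1964 and 762). With 1 library per group there is no test of the condition, and intervals cover counting error only.

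Over gene bodies with 2 kb on each side, 3 of the 40 windows differed by more than 1.5-fold between the libraries, beside 4.36% of all 20908 windows. All 3 were lower with Ikzf1/4, as were 3.52% of all windows. Fragments are given as CPM, scaled to the total of each library. Dcx had 24.6 CPM in the control against 15.0 with Ikzf1/4, a ratio of 0.61 (95% counting interval 0.54 to 0.68). Over barcodes with at least 3000 fragments the Dcx ratio was 0.72, short of that limit, and over those with at least 10000 it was 0.81, with an interval of 0.63 to 1.03 that holds 1. L1cam had 16.9 and 10.4 CPM, a ratio of 0.62 (0.54 to 0.70). Both lie on the X chromosome, whose 824 windows had a median ratio of 0.75 and were past 1.5-fold in 32.3%. Scg2, on chromosome 1, had 7.12 and 4.56 CPM, a ratio of 0.64 (0.52 to 0.78), from 371 and 134 fragments. The nearest windows short of that limit were Syn1 (0.77) and Nlgn3 (0.77), which are on the X chromosome as well. On the higher side the nearest were Dlg4, with 47.0 and 67.4 CPM at 1.43 (1.35 to 1.52), and Vamp2, with 13.0 and 16.4 CPM at 1.26 (1.12 to 1.42).

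**Figure D4:**
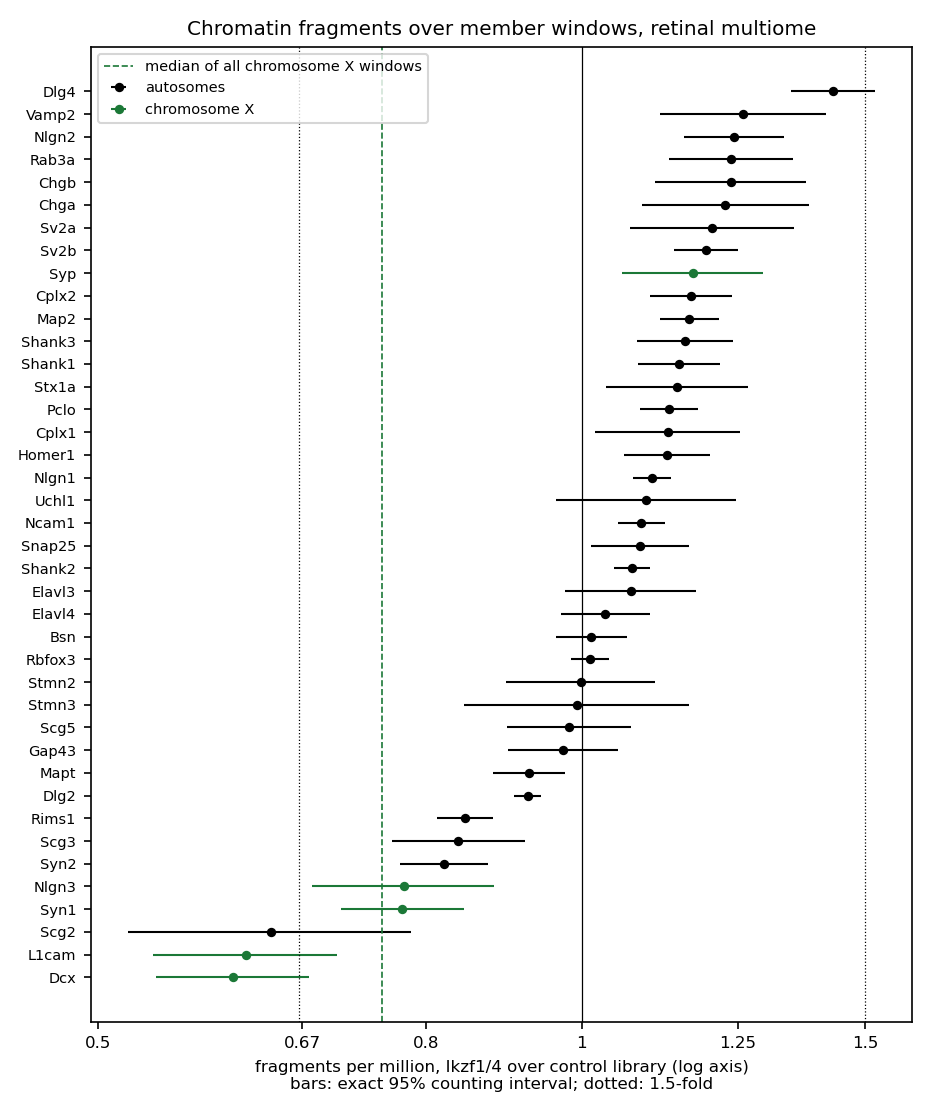
Ratio of CPM in the Ikzf1/4 over the control library (x axis, log scale) for the windows of the 40 genes (y axis, sorted), with exact 95% counting intervals; green marks X chromosome genes and the dashed line the median of all X chromosome windows. The windows of Scg2, L1cam and Dcx lie below the lower dotted line, and Syp is the only X chromosome gene above 1.

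Smaller differences were common. The median ratio of the 40 windows was 1.09, beside 1.06 over all windows. For the 40 it was 1.02 over barcodes with at least 3000 fragments and 1.10 over those with at least 10000. Intervals lay wholly above 1 for 21 of the 40, where 37.8% of all windows did, and wholly below 1 for 10, where 14.1% did. They held 1 for 9 of the 40, beside 10054 of all 20908 windows. Intervals narrow as fragments rise, and all windows with at least 50 fragments were counted. Windows of the 40 genes held at least 371 fragments in the control and 134 with Ikzf1/4. These shares, and the counts by role below, are therefore not at like depth. By role, 9 of 11 vesicle and SNARE windows and 7 of 9 postsynaptic windows had intervals above 1, and the other 4 were below 1. Over barcodes with at least 3000 fragments, an alternative added after seeing the data, intervals lay above 1 for 5 of 11 and 3 of 9, and for 11 of all 40, where 16.2% of all windows did. Over barcodes with at least 10000 they did for 6 of 11, 4 of 9 and 16 of 40, where 25.2% of all windows did. Rab3a went from 1.24 to 0.96 at the lower minimum and 1.18 (1.02 to 1.36) at the higher. Nlgn2 went from 1.24 to 0.99 and 1.14 (1.02 to 1.28). Over all barcodes the 3 RNA-binding protein windows had intervals that held 1, but with at least 3000 fragments Elavl3 was at 1.21 (1.04 to 1.40) and Rbfox3 at 0.91 (0.87 to 0.95). Over all barcodes intervals also held 1 for Stmn2 (18.5 and 18.4 CPM), Stmn3 (8.23 and 8.17) and Gap43 (34.1 and 33.2). Among the granins, Chgb (15.8 and 19.6 CPM) and Chga (13.0 and 15.9) had ratios of 1.24 and 1.23. Scg3 (26.1 and 21.9 CPM) was at 0.84 and Scg5 (26.9 and 26.4) at 0.98. Pclo (112 and 127 CPM) was at 1.13 and Rims1 (144 and 122) at 0.85, and Syn2 (59.6 and 48.9) was at 0.82. These are other cells under another protocol than the fibroblasts, so the readouts stand side by side and were not compared. Of the 40 windows, 14 also reach another protein-coding gene.

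Within 500 bases of the gene start, 9 of 30 genes were past 1.5-fold, 6 higher and 3 lower, beside 13.7% of all starts, whose median ratio was 1.20. Of all 12231 starts, 1314 were past that limit on the higher side and 360 on the lower. At the Scg2 start, the region of the promoter printed above, the values were 3.51 and 2.04 CPM, a ratio of 0.58 (0.43 to 0.78). The Chgb start was at 8.85 and 11.5 CPM, a ratio of 1.31 (1.13 to 1.51), and those of Scg3 and Scg5 were both at 1.09, with intervals that held 1. The Scg3 start used lies inside the gene, as above. Higher starts included Dlg4 (1.61 and 2.86 CPM, 1.78), Sv2a (2.86 and 4.87, 1.70), Syp (3.20 and 5.25, 1.64), Cplx1 (2.07 and 3.37, 1.63), Pclo (10.1 and 16.2, 1.60) and Sv2b (2.36 and 3.61, 1.53). The lower starts were those of Scg2, L1cam (1.32 and 0.783, 0.59) and Syn2 (4.01 and 2.59, 0.65). Among the 132 related genes only the window of Homer3 was past 1.5-fold, at 1.59. Windows of cell type markers differed as well. All 6 rod windows were higher, at ratios of 1.28 to 2.04, and the 5 bipolar cell windows were at 0.96 to 1.39, with 4 intervals above 1. The 6 Muller glia windows were at 0.86 to 1.06 and the 5 microglia windows at 0.79 to 1.04. The part of cell type makeup in the ratios of these genes was not tested.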

How the data were processed

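RNA-seq was made from 6 fibroblast libraries and single-nucleus ATAC-seq from 2 multiome libraries. Per the labels, the authors quantified poly(A)-selected RNA with salmon and compared groups with DESeq2. No version or annotation is stated. The deposited salmon files hold estimated counts per transcript, used here for depth only, because no source used here pairs transcripts with genes. The deposited table holds for each gene a normalised mean signal, the log2 fold change and standard error, p-values before and after adjustment, and the Wald statistic as a score. Shrinkage of the fold changes is not stated. Its values were copied, not refitted, so members have no values per library. Intervals are normal 95% intervals from the standard error. Genes without an adjusted p were left out of counts of calls.

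Per the file headers, deposited fragment counts were made on mm10 by cellranger-arc 2.0.1. Fragments overlapping each gene of the RefSeq GRCm38.p6 table and 2 kb on both sides were counted over all barcodes and scaled to CPM, with at least 50 fragments per window over both libraries. Ratios have exact conditional binomial 95% intervals (scipy 1.17.1). Counting and adjustment were tested on simulated data. Fibroblast ATAC-seq peak lists were not used, because their coordinates on chromosome 1 reach 197160924, past the last mm10 fragment at 195371609.

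Members and lists were chosen with earlier results of these data known. Named genes are members that were called, those that a role turns on, and, per related list, up to 2 called genes with the smallest adjusted p in each direction; 1 gene is not reported here. Other thresholds, adjustments, scalings and windows were tried as alternatives.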

Additional observations from a re-analysis of the deposited data

How the results depend on the processing

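Of the 38 tested members in the authors' deposited table, 10 were called, and this count was 9 to 11 at adjusted p thresholds of 0.01 and 0.1 (22.5% and 36.0% of all genes with an adjusted p), with Benjamini-Hochberg adjustment over every gene with a raw p, and with an absolute log2 fold change over 0.5. It was 5 with a mean normalised count of at least 50, 6 with Benjamini-Yekutieli adjustment (12.7% of all genes with a raw p, beside 19.3% for the Benjamini-Hochberg alternative) and 2 with an absolute log2 fold change over 1. Calls of Syn2, Scg2, Scg3 and Rims1 were lost under Benjamini-Yekutieli adjustment, with adjusted p of 0.118, 0.115, 0.0535 and 0.278, and that of Rims1 also at 0.01. The median log2 fold change was -0.10 in each alternative, and the mean was -0.04. Related genes had 51 calls, and 22 with an absolute log2 fold change over 0.5. Member windows past 1.5-fold numbered 3, or 2 to 3 under the barcode minimums, the other scaling and the higher fragment minimum, 9 of 30 at gene starts, and 7 with the smaller fold limit, which 21.3% of all windows passed. With at least 500 fragments, 3 of 40 passed, beside 1.31% of all windows. For Dcx the ratio was 0.81 with barcodes of at least 10000 fragments, and for Scg2 0.52. The alternatives for single genes change only p, so they say nothing about direction. Of the windows of Dcx, L1cam and Scg2, 0 crossed 1, and others did: of those with an interval off 1 over all barcodes, Ncam1, Nlgn2 and Rab3a with at least 3000 fragments, and Nlgn3, Rims1 and Stx1a with at least 10000.

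No paired analysis was possible because the gene comparison is the authors' deposited table, which holds no values per library, and transcripts could not be summed to genes. For the same reason the planned fits of gene sums, with replicates left out, other size factors or no filter, were not run. Depth limits the genes with mean normalised counts under 10, where 2.99% of all genes were called.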

Other observations

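Markers kept to check for other cell types included called genes in the fibroblasts, where 30.6% of all genes tested were called. Of genes with an adjusted p, 1 of 4 skeletal muscle markers was called higher in the authors' deposited table (Ttn, the giant muscle protein titin, 0.80, SE 0.22, adjusted p 0.00215 by DESeq2), and the other 3 had negative values. Among amacrine and ganglion cell markers it was 1 of 4 in the authors' deposited table (Pou4f1, a transcription factor of ganglion cells, 1.03, SE 0.20, adjusted p 4.12e-06 by DESeq2). Higher too were 1 of 3 epithelial markers (Epcam, 0.64), 1 of 5 Schwann cell and neural crest markers (Mbp, 0.41) and 2 of 5 Muller glia markers (Sox9, 0.37, and Apoe, 0.33) in the authors' deposited table. Lower were 1 of 5 melanocyte markers (Mitf, -0.37), 1 of 3 cone markers (Opn1sw, -0.50) and 1 of 5 microglia markers (C1qa, -0.17) in the authors' deposited table. With Benjamini-Hochberg adjustment over every gene with a raw p of the DESeq2 comparison, Opn1sw (0.0623) and C1qa (0.0546) no longer passed.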
